A study of Mus musculus with 12 samples.

Results

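Gene expression in whole mouse hearts that had not been given doxorubicin (DOX) was compared between mice with an altered CHIP gene and wild-type (WT) mice. The 6 arrays compared, of 12 in the series, were those whose titles name a heart with no treatment, 3 labelled knockout and 3 labelled WT. Each array was a separate male C57BL/6J mouse, aged 8 to 10 weeks in the labels, with hearts taken at day 5. The other 6 arrays, 3 per genotype, came from mice that the labels give a single 15 mg/kg DOX injection. They entered this comparison through the shared estimate of the spread and through the choice of each gene's brightest probe set, made over all 12 arrays. The methods of the study describe cardiac-specific CHIP transgenic mice with WT littermates and a saline injection for the mice without DOX, and they state another age and DOX dose. They give no knockout mice for this experiment and do not name the promoter of the transgene or the number of founder lines. The arrays were grouped by their labels, and those labelled knockout are called knockout-labelled throughout, because the targeted gene went against that label.

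CHIP, encoded by Stub1, binds the chaperones Hsp70 and Hsp90 through its tetratricopeptide repeats and attaches ubiquitin to the proteins they hold, which sends those proteins to the proteasome. In heart muscle it is known for limiting damage under oxidative and ischemic stress. Reported substrates include p53, the kinase ASK1, FOXO factors, myocardin and the phosphatase SHP-1.

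Stub1 was raised, not lost, in the knockout-labelled hearts. On its brighter probe set the intensities were 8762, 9817 and 9655 in knockout-labelled replicates 1 to 3, against 1857, 1831 and 1790 in the WT hearts, and replicates 1 to 3 are given in this order below. The groups stood far apart, with a 5.15-fold ratio of means and a log2 fold change of 2.34 ± 0.13 (SE, limma, adjusted p = 0.00022), where fold changes are knockout-labelled over WT on the log2(intensity + 32) scale and a call means an adjusted p under 0.05. Without knockout-labelled replicate 3 the log2 fold change was 2.32 (adjusted p = 0.002), and the call held when any of the 6 arrays was left out. The dimmer Stub1 probe set gave 1058, 1070 and 1122 in knockout-labelled hearts, against 1215, 1092 and 1037 in WT hearts, with a log2 fold change of -0.04 (adjusted p = 0.94). The probe sets of this gene thus did not move together, and which part of the transcript each one reads is not given in the sources used here.

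Over all 45037 probe sets, 817 were called, which is 1.81%, with 416 higher (0.924%) and 401 lower (0.89%) in knockout-labelled hearts. Counted by gene on its brightest probe set, 501 of 18193 genes were called (2.75%), 245 of them higher (1.35%) and 256 lower (1.41%). The median log2 fold change over all genes was -0.01. At least 1.5-fold changes made up 242 of the called probe sets and at least 2-fold changes 58. The groups did not overlap at 8717 probe sets, 19.4% of all, including the 817 that were called. With 3 arrays a group, the smallest p of an exact permutation test is 0.1, so single genes were tested only in the fit across all probe sets.

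Knockout-labelled replicate 3 stood apart from its group. It correlated with the other knockout-labelled arrays at r = 0.991 and 0.988 over all probe sets, against 0.9956 or more for the other within-group pairs without DOX. At 259 probe sets it lay at least 2-fold from the mean of the other 2 arrays of its group, 185 above and 74 below, against 59 and 104 for replicates 1 and 2 and 17 to 34 for the WT arrays. Without it 338 probe sets were called (0.75%), 175 higher and 163 lower, and by gene 205 (1.13%), 96 higher (0.528%) and 109 lower (0.599%). Of these 338, 290 were also called with all arrays, which is 85.8% of the 338 and 35.5% of the 817, and all 817 kept their sign.

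The genes farthest from the rest on this array were chosen after their values were seen. The chemokine Cxcl13 had 1622 on it, against 29.2 and 14 on knockout-labelled replicates 1 and 2 and 14.3 to 29.1 on the WT arrays. Lcn2, an iron-carrier binding protein of neutrophils and inflamed tissue, had 1534, against 19.1 and 30.3 on the other knockout-labelled arrays and 54.8 to 71.9 on the WT arrays. Cdkn1a, the cell cycle inhibitor p21, had 2794 there, against 419 and 345 on the others of its group and 211, 175 and 190 on the WT arrays. Serpina3n, Prg4, Apod, Mmp3, S100a8 and S100a9 were likewise high on it, and a probe set of Rps9 was low, at 224 against 1708 and 1875. None of these 10 genes was called with or without the array.

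**Figure D1:**
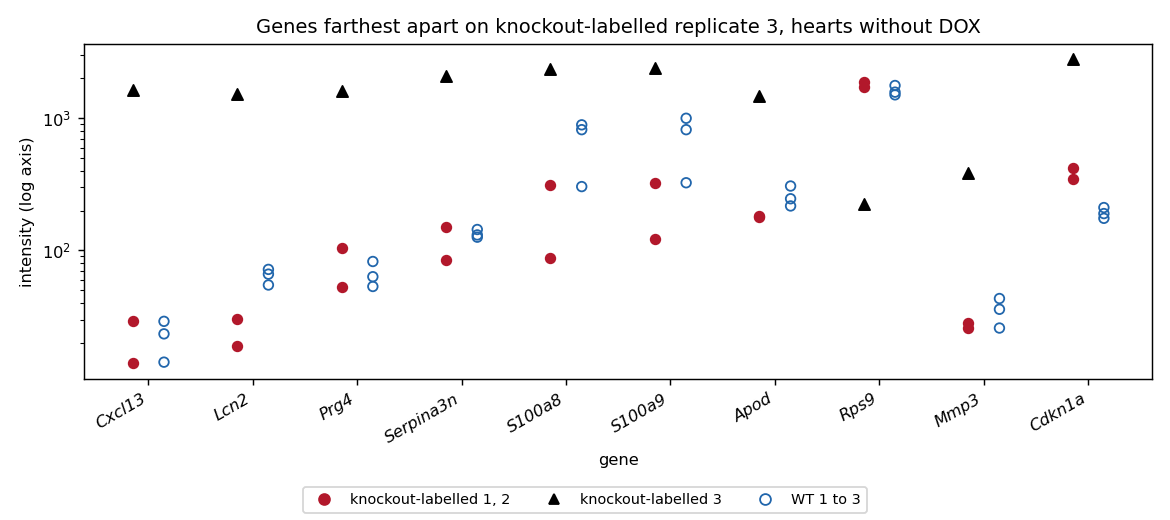
Intensity (log axis) of the 10 genes farthest apart on knockout-labelled replicate 3, for each heart without DOX. Triangles mark that array, filled circles the other knockout-labelled arrays and open circles the WT arrays, and on Cxcl13 the triangle stands at 1622 with every other array at 29.2 or below.

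Some list sums and atrial genes were also highest on this array. Summed neutrophil and acute phase markers (12 genes) came to 482, 1009 and 7437 in knockout-labelled hearts, against 1011, 2128 and 2275 in WT hearts. That sum holds S100a8, S100a9 and Lcn2, chosen above for their values on this array, and so is no separate result. Of the 12 genes 6 had a higher mean and 6 a lower mean, with a list median of 0.03. Glucocorticoid response genes (18) summed to 18005, 15962 and 35524 in knockout-labelled hearts, against 18185 to 19950 in WT hearts. The atrial light chain Myl7 had 19.2, 21.2 and 125 in knockout-labelled hearts, against 23.1, 22.5 and 19.2 in WT hearts, and Sln, an atrial regulator of the calcium pump, had 10.8, 8.35 and 82.9 against 11, 10.3 and 18. Myl4, another atrial light chain, had 116, 66.7 and 516 against 51.1, 51.6 and 62.6. Their part in the differences below was not tested, and the adjusted p of called genes without this array stands beside them or in their paragraph.

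The genes around Stub1 on chromosome 17, 10 measured on each side of it, were read in the same fit. Of these 20 genes 6 were called (against 2.75% of all genes), 5 lower and 1 higher in knockout-labelled hearts, and their median log2 fold change was -0.06. Rhbdl1, a rhomboid-like protein gene next to Stub1, had 30.3, 37.8 and 31.4 in knockout-labelled hearts, against 70.6, 70.6 and 56.5 in WT hearts, with a log2 fold change of -0.59 ± 0.07 (adjusted p = 0.0097). Antkmt, which encodes a methyltransferase of the mitochondrial ADP/ATP carrier, had 346, 326 and 315 against 538, 474 and 465 (log2 fold change -0.54, adjusted p = 0.013). Both genes had every knockout-labelled array below every WT array. Rhot2, a mitochondrial transport GTPase, fell by 0.45 on the log2 scale (adjusted p = 0.017), Mettl26 by 0.40 and Mcrip2 by 0.31. Fbxl16, an F-box protein gene, was the called higher neighbour, with 144, 122 and 141 in knockout-labelled hearts against 91.4, 100 and 89.5 in WT hearts. Jmjd8, on the other side of Stub1, did not pass (log2 fold change -0.14, adjusted p = 0.46). The largest change among the neighbours was that of Haghl, which was not called. It had 191, 186 and 99.4 in knockout-labelled hearts against 373, 300 and 261 in WT hearts (log2 fold change -0.87, limma, adjusted p = 0.058). Its dimmer probe sets gave -0.59, -0.56 and 0.04, also without a call.

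The calls at these neighbours were less firm than that of Stub1. Antkmt and Rhbdl1 were still called without knockout-labelled replicate 3 (adjusted p = 0.038 and 0.031), while Rhot2 (0.051), Mcrip2 (0.07), Mettl26 (0.073) and Fbxl16 (0.07) were not. Of the 6 calls, 5, 6 and 2 remained without knockout-labelled replicates 1, 2 and 3, and 2, 0 and 3 without WT replicates 1, 2 and 3, with the same sign in every case. Pigq, a gene of glycolipid anchor synthesis, had 1 called probe set of 7, with 373, 313 and 341 in knockout-labelled hearts against 234, 223 and 245 in WT hearts (log2 fold change 0.49, adjusted p = 0.016), and its brightest probe set did not pass (0.30, adjusted p = 0.076).

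**Figure D2:**
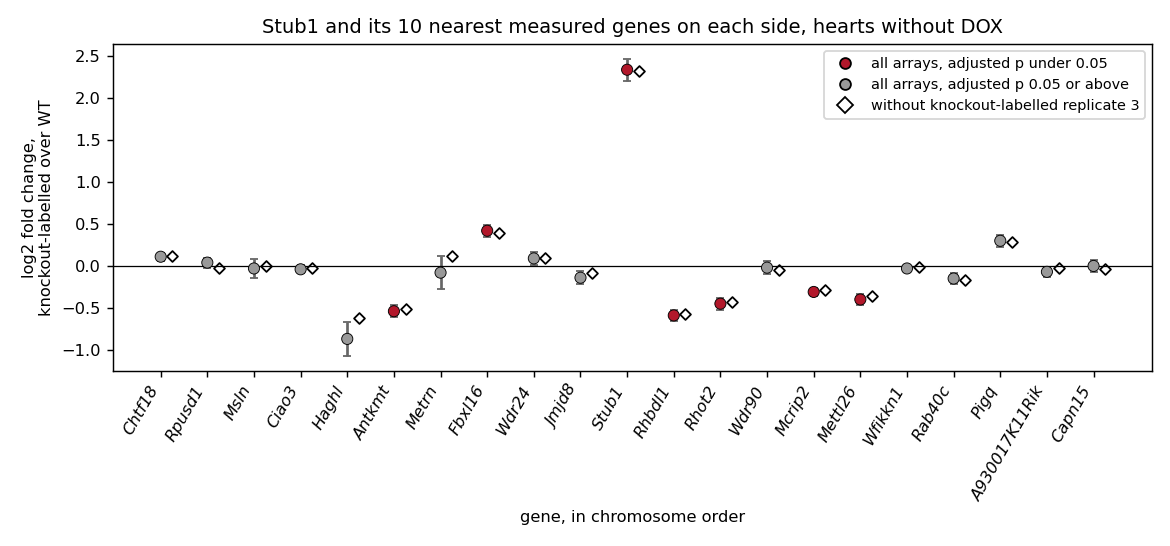
Log2 fold change, knockout-labelled over WT hearts without DOX, of Stub1 and the 10 measured genes on each side of it, in gene order, with standard errors. Stub1 stands at 2.34, and 5 of the 6 called neighbours lie below 0.

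The largest log2 fold changes among called genes whose groups did not overlap were taken, 15 in each direction, each gene on the brightest of its called probe sets, and since all were called their count is no result. Of the lower ones 3 encode proteins of muscle filaments and Z-discs. Myot, the Z-disc protein myotilin, had 67.8, 58.2 and 63.1 in knockout-labelled hearts, against 369, 459 and 413 in WT hearts, a log2 fold change of -2.23 ± 0.14 (adjusted p = 0.0005). Tmod4, the skeletal muscle isoform of the actin filament cap tropomodulin, had 57.5, 136 and 32.2 against 326, 549 and 454, a log2 fold change of -2.24 ± 0.34 (adjusted p = 0.016). Myh7b, a slow myosin heavy chain gene that also hosts a microRNA, had 36.3, 57.7 and 42.7 against 156, 151 and 112 (log2 fold change -1.15, adjusted p = 0.013). In each of the 3 genes every knockout-labelled heart lay below every WT heart.

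Rpl3l, the ribosomal protein that replaces Rpl3 in striated muscle, had 405, 262 and 518 in knockout-labelled hearts, against 1674, 1401 and 1325 in WT hearts, a log2 fold change of -1.85 ± 0.25 (adjusted p = 0.013). Hopx, a homeodomain protein of cardiac differentiation that does not bind DNA itself, had 1121, 1397 and 615 on its dimmer probe set, against 2364, 2135 and 2356 (log2 fold change -1.18, adjusted p = 0.044). Its brighter probe set gave -0.98 (adjusted p = 0.069), and without knockout-labelled replicate 3 both Hopx probe sets were called, at -0.85 (adjusted p = 0.037) and -0.64 (0.029). Without that array Myot stayed at -2.23 (adjusted p = 0.0024), Tmod4 at -1.93 (0.039), Rpl3l at -2.06 (0.015) and Myh7b at -1.12 (0.037).

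The Z-disc and sarcomere lists held few calls. Of 22 Z-disc and costamere genes Myot alone was called on its brightest probe set (4.55%, against 2.75% of all genes). On any probe set 1 gene was called higher and 1 lower. The groups did not overlap in 7 with knockout-labelled lower and 3 with it higher, and the list median was -0.07, with and without knockout-labelled replicate 3. Of 17 sarcomere filament genes none was called by limma, with Lmod2, a nucleator of actin thin filaments, nearest at 3463, 3209 and 2431 in knockout-labelled hearts against 4529, 4718 and 4327 in WT hearts (log2 fold change -0.59, adjusted p = 0.052). In 9 of the 17 the groups did not overlap with knockout-labelled lower and in 1 with it higher, against 19.4% of all probe sets in either direction. That share counts every probe set, dim ones included, and no share by gene was taken, so the excess is not measured. The list median was -0.14, or -0.06 without knockout-labelled replicate 3, and the summed intensities were 206762, 217229 and 197955 in knockout-labelled hearts and 246019, 224553 and 226070 in WT hearts, groups that did not overlap. Of 19 muscle and atrophy ubiquitin ligase genes 1 was called on its brightest probe set (5.26%, against 2.75% of all genes), and on any probe set 1 was higher and 2 lower. Trim54, a ubiquitin ligase of the muscle RING family, was that gene, with 1026, 1019 and 952 in knockout-labelled hearts against 1684, 1742 and 1481 in WT hearts (log2 fold change -0.69 ± 0.13, adjusted p = 0.031, and 0.096 without knockout-labelled replicate 3). Of the 6 arrays only knockout-labelled replicate 2 could be left out without ending its call.

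Cep128, Ift81, Map4 and Sh3rf2 also stood among the lower ones. Cep128, a centriole appendage protein, had 124, 124 and 106 in knockout-labelled hearts, against 514, 462 and 438 in WT hearts, with a log2 fold change of -1.75 ± 0.10 (adjusted p = 0.00022). Ift81, a subunit of the intraflagellar transport complex of cilia, had 527, 610 and 514 against 1407, 1350 and 1299 (log2 fold change -1.25 ± 0.09, adjusted p = 0.0008). Both genes had tight groups, and their log2 fold changes were -1.69 (adjusted p = 0.0018) and -1.21 (0.0037) without knockout-labelled replicate 3. Map4, a microtubule-associated protein, fell on its brightest probe set by 1.30 on the log2 scale (adjusted p = 0.023), while its other probe sets gave -0.35 to 0.01 and were not called, and without knockout-labelled replicate 3 its adjusted p was 0.06. Sh3rf2, an adaptor protein with a RING domain, had 68.0, 41.8 and 51.1 against 172, 212 and 191 (log2 fold change -1.39, adjusted p = 0.0022, and 0.0088 without that array).

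The remaining lower genes were enzymes, carriers and genes of little known function. Cyp26b1, which degrades retinoic acid, had 36.3, 38.6 and 40.8 in knockout-labelled hearts, against 306, 143 and 197 in WT hearts (log2 fold change -1.76, adjusted p = 0.026). Gnmt, which uses the methyl donor S-adenosylmethionine to methylate glycine, had 54.5, 56.3 and 55.8 against 168, 159 and 158 (log2 fold change -1.15 ± 0.16, adjusted p = 0.014). Slc25a34, a mitochondrial carrier, fell by 1.46 on the log2 scale, Shld1, a DNA repair factor of the shieldin complex, by 1.33 and Inmt, an indole methyltransferase, by 1.20. Gm19277 had 47.0, 26.5 and 19.3 in knockout-labelled hearts, against 199, 147 and 102 in WT hearts (log2 fold change -1.52, adjusted p = 0.013). Without knockout-labelled replicate 3, Gnmt (adjusted p = 0.039), Shld1 (0.029) and Gm19277 (0.036) were still called, while Cyp26b1 (0.071), Slc25a34 (0.059) and Inmt (0.13) were not.

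Smooth muscle actin led the higher genes. Acta2, smooth muscle alpha-actin, had 9168, 6289 and 13040 in knockout-labelled hearts, against 1934, 1283 and 1932 in WT hearts, a 5.53-fold ratio of means and a log2 fold change of 2.41 ± 0.34 (adjusted p = 0.014). Without knockout-labelled replicate 3 it was 2.15 (adjusted p = 0.037). Myl9, a regulatory light chain of smooth muscle and non-muscle myosin, had 1079, 1117 and 1758 against 534, 419 and 587 (log2 fold change 1.28, adjusted p = 0.034, and 0.089 without that array). Every knockout-labelled heart was above every WT heart in both genes, while the 11 other smooth muscle and pericyte markers summed to 19817, 19713 and 17279 in knockout-labelled hearts and 21039, 19597 and 20069 in WT hearts. That sum holds the bright gene Des, which the Z-disc list also holds, at 4380, 4300 and 4665 against 5451, 5192 and 4876. Of the 11 markers 7 had a higher mean, and their median was 0.05, or 0.16 without knockout-labelled replicate 3.

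Phlda3 and Btg2, both known targets of p53, were also among the highest. Phlda3, an inhibitor of AKT, had 312, 359 and 571 in knockout-labelled hearts, against 98.9, 105 and 104 in WT hearts, a log2 fold change of 1.68 ± 0.16 (adjusted p = 0.0044), and without knockout-labelled replicate 3 it was 1.44 (adjusted p = 0.00019). Btg2, an antiproliferative protein, had 413, 273 and 651 against 44.8, 64.4 and 59.4 on 1 probe set (log2 fold change 2.37, adjusted p = 0.026, and 0.077 without that array), and its other, brighter probe set gave 0.50 (adjusted p = 0.51). Of 29 p53 pathway genes 3 were called, all higher (10.3%, against 1.35% of all genes called higher), and the list median was 0.12, or 0.08 without that array. The other called members were Eda2r, a receptor of the TNF family, at 54.9, 45.5 and 106 against 18.3, 18.3 and 18.9 (log2 fold change 0.95, adjusted p = 0.025), and Ei24, an endoplasmic reticulum protein, at a log2 fold change of 0.25 (adjusted p = 0.041). With that array left out their adjusted p were 0.0024 and 0.11. Phlda3 held its call without any single array, Eda2r lost it without any of the WT arrays and Ei24 without any of the 6 arrays. In the limma fit to the 6 arrays without DOX alone Phlda3 was not called (adjusted p = 0.051). The list did not move in 1 direction, since 21 of the 29 had a higher mean and 8 a lower mean. The groups did not overlap in 10 with knockout-labelled higher and in 3 with it lower, against 19.4% of all probe sets in either direction. Among those 3 was Sesn1, at 1005, 698 and 697 against 1619, 1281 and 1314, without a call (log2 fold change -0.80, limma, adjusted p = 0.088).

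Other higher genes encoded membrane and secreted proteins. Aqp4, a water channel, had 221, 211 and 215 in knockout-labelled hearts, against 75.8, 38.8 and 39.9 in WT hearts, a log2 fold change of 1.60 ± 0.17 (adjusted p = 0.0061), and it kept its call without any single array. Fzd2, a Wnt receptor, had 116, 82.5 and 169 against 37.8, 28.2 and 35.4 (log2 fold change 1.19, adjusted p = 0.013, and 0.012 without knockout-labelled replicate 3). Slc8a1, the sodium-calcium exchanger of heart muscle, was called on 1 probe set of 4, at 534, 358 and 513 against 210, 154 and 181, while the others gave log2 fold changes of -0.01 to 0.18. Pla2g5, a secreted phospholipase, rose by 1.22 (log2 fold change, adjusted p = 0.035), Fgl2, a prothrombinase, by 1.22, Stbd1, a glycogen-binding protein, by 1.20 and Olfml2b, a secreted matrix protein, by 1.44. Gm11627 had 116, 127 and 277 against 27.0, 36.9 and 32.8. Without knockout-labelled replicate 3, Aqp4 (adjusted p = 0.017), Olfml2b (0.025) and Gm11627 (0.028) were still called, while Pla2g5 (0.072), Fgl2 (0.052), Slc8a1 (0.1) and Stbd1 (0.12) were not.

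Of the 15 higher genes, 8, 15 and 7 were still called without knockout-labelled replicates 1, 2 and 3, and 5, 3 and 5 without WT replicates 1, 2 and 3. Of the 15 lower genes the counts were 12, 14 and 11 without the knockout-labelled arrays and 10, 4 and 7 without the WT arrays. The sign of every gene was the same each time, and WT replicate 2 was the array whose absence ended the most calls. Stub1, Phlda3, Aqp4, Myot, Cep128, Sh3rf2 and Ift81 were called in all 6 of these fits, which keep the DOX arrays. With the 6 arrays without DOX alone all of them but Phlda3 (limma, adjusted p = 0.051) were called.

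**Figure D3:**
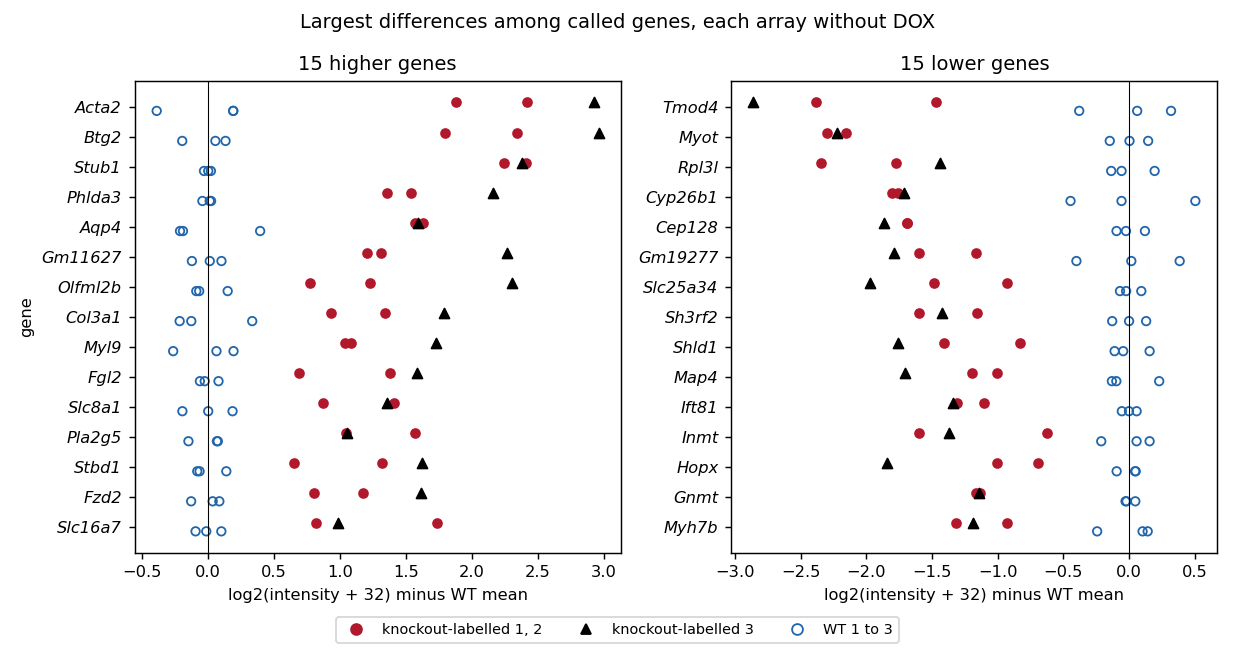
The 15 higher and 15 lower called genes named above, drawn for each heart without DOX as log2(intensity + 32) minus the WT mean. Triangles mark knockout-labelled replicate 3, filled circles the other knockout-labelled arrays and open circles the WT arrays, and in no gene do the groups overlap.

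Extracellular matrix genes gave calls in 1 direction only. Of 40 measured members 4 were called, all higher (against 1.35% of all genes called higher), and 37 had a higher mean, or 30 without knockout-labelled replicate 3. The groups did not overlap, with knockout-labelled higher, in 27 of the 40, against 19.4% of all probe sets in either direction, a share by probe set and not by gene. The list median was 0.63, against -0.01 over all genes, and 0.54 without knockout-labelled replicate 3. Relative to the WT mean, the median member stood at 0.61, 0.38 and 0.84 in knockout-labelled hearts and at 0.06, -0.17 and 0.09 in WT hearts (log2), so each knockout-labelled heart was above each WT heart.

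All 4 called members were collagens. Col4a2, a chain of the collagen network of basement membranes, had 1666, 1485 and 1893 in knockout-labelled hearts, against 1065, 852 and 1100 in WT hearts (log2 fold change 0.73 ± 0.11, adjusted p = 0.016). Col6a2, of beaded filament collagen, had 1514, 1176 and 1518 against 670, 570 and 704 (1.07, adjusted p = 0.024). Col15a1, a basement membrane collagen, had 564, 360 and 355 against 225, 177 and 214 (0.92, adjusted p = 0.031), and Col1a1, the main fibrillar collagen chain, had 236, 149 and 271 against 82.6, 62.4 and 96.6 (1.13, adjusted p = 0.048). Col4a2 and Col15a1 kept their calls without knockout-labelled replicate 3 (adjusted p = 0.043 and 0.048), while Col6a2 (0.076) and Col1a1 (0.14) did not. Of the 4 calls, 2, 4 and 2 remained without knockout-labelled replicates 1, 2 and 3, and 1, 0 and 1 without WT replicates 1, 2 and 3. The dimmer Col1a1 probe set gave 0.68 without a call (adjusted p = 0.1).

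Col3a1, a fibrillar collagen, was called on its dimmer probe set, at 140, 97.6 and 203 in knockout-labelled hearts against 30.4, 26.7 and 53.9 in WT hearts (log2 fold change 1.35, adjusted p = 0.033, and 0.091 without knockout-labelled replicate 3), and not on its brighter one (1.48, adjusted p = 0.21). Postn, a matrix protein of activated fibroblasts, had 694, 575 and 755 in knockout-labelled hearts, against 269, 218 and 380 in WT hearts, with no call (adjusted p = 0.39). Fn1, Eln and Dcn had log2 fold changes of 0.04, -0.01 and 0.15. Fibroblast markers were read beside them. All 12 had a higher mean (10 without knockout-labelled replicate 3) and 1 was called (Col1a1, which both lists hold), which is 8.33%, against 1.35% of all genes called higher. They summed to 27236, 22901 and 32888 in knockout-labelled hearts, against 21162, 18332 and 22140 in WT hearts. The 7 fibroblast markers that are not matrix genes of the list above summed to 10462, 9331 and 12664 in knockout-labelled hearts and 9891, 8079 and 9007 in WT hearts, groups that overlap, and their median was 0.32, or 0.20 without knockout-labelled replicate 3. In whole tissue, more cells of a type and more RNA per cell cannot be told apart.

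Fatty acid uptake and oxidation genes, which supply most of the fuel of the adult heart, also gave calls in 1 direction only. Of 37 members 4 were called, all lower (10.8%, against 1.41% of all genes called lower), and 34 had a lower mean, or 35 without knockout-labelled replicate 3. In 17 the groups did not overlap, all with knockout-labelled lower, against 19.4% of all probe sets in either direction, a share by probe set and not by gene. The list median was -0.32, or -0.20 without knockout-labelled replicate 3. The median member stood at -0.29, -0.15 and -0.55 in knockout-labelled hearts and at -0.00, 0.06 and -0.07 in WT hearts (log2 relative to the WT mean).

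The called members act at entry into and along mitochondrial beta-oxidation or at the lipid droplet. Slc25a20, the carnitine-acylcarnitine carrier, had 1957, 2420 and 1943 in knockout-labelled hearts, against 3362, 3843 and 3436 in WT hearts (log2 fold change -0.75 ± 0.12, adjusted p = 0.02). Decr1, which prepares polyunsaturated fatty acids for oxidation, had 2758, 3466 and 2377 against 4763, 4914 and 4482 (-0.73, adjusted p = 0.03). Acadvl, the very long-chain acyl-CoA dehydrogenase, had 4039, 4391 and 3481 against 5771, 5295 and 5170 (-0.45, adjusted p = 0.033). Cidea, a lipid droplet protein, had 268, 340 and 351 against 637, 563 and 473 (-0.75, adjusted p = 0.021), and it alone kept its call without knockout-labelled replicate 3 (adjusted p = 0.04, against 0.062 to 0.075 for the others). Of these 4 calls, 1, 4 and 1 remained without knockout-labelled replicates 1, 2 and 3, and 1, 0 and 1 without the WT arrays. The other probe sets of Slc25a20 and Decr1 gave -0.57 (adjusted p = 0.14) and -0.71 (0.15), without a call. The uptake proteins Cd36 and Lpl gave log2 fold changes of 0.03 and -0.03.

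**Figure D4:**
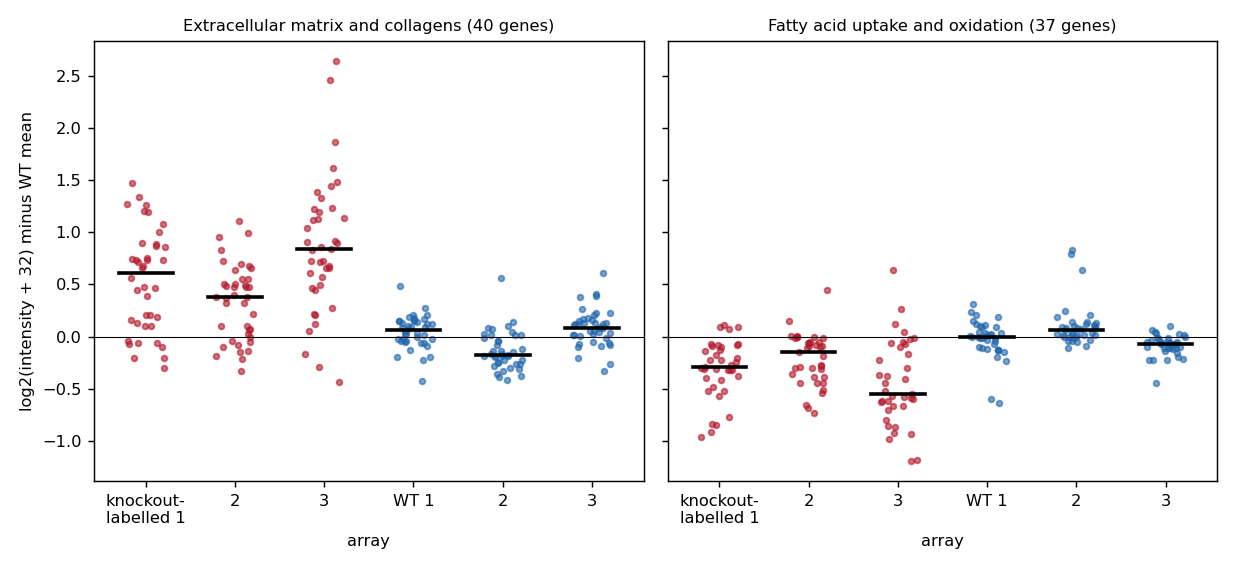
Members of the extracellular matrix and the fatty acid lists, drawn for each heart without DOX relative to the WT mean on the log2(intensity + 32) scale. The median matrix member lies at 0.61, 0.38 and 0.84 in knockout-labelled hearts and the median fatty acid member at -0.29, -0.15 and -0.55, and replicate 3 is the farthest from the WT hearts in both.

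Other energy lists held 1 call each, 2.33% of the oxidative phosphorylation genes and 3.03% of the glucose and glycogen genes, against 2.75% of all genes. Of 43 oxidative phosphorylation subunits 1 was called, the complex I subunit Ndufa1, with 13612, 13613 and 13579 in knockout-labelled hearts against 11555, 12086 and 12344 in WT hearts (log2 fold change 0.18, adjusted p = 0.022, and 0.066 without knockout-labelled replicate 3), and the list median was 0.00. Its call also ended without knockout-labelled replicate 1 or WT replicates 1 or 2. Of 33 glucose and glycogen genes Stbd1 was the called one, at 401, 240 and 502 against 132, 159 and 134. Without knockout-labelled replicate 3 its adjusted p was 0.12, and Phkg1, a subunit of phosphorylase kinase, was called in its place (log2 fold change 0.69, adjusted p = 0.034).

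The protein degradation machinery into which CHIP feeds was compared next. Of 37 proteasome subunit genes 6 were called, all higher (16.2%, against 1.35% of all genes called higher), and 25 had a higher mean, with a list median of 0.06, or 0.07 without knockout-labelled replicate 3. Psmd14, the deubiquitinase of the regulatory lid, had 1405, 1329 and 1565 in knockout-labelled hearts, against 1023, 975 and 987 in WT hearts (log2 fold change 0.51 ± 0.06, adjusted p = 0.0072). The core subunits Psma4, Psma1, Psma2 and Psmb3 rose by 0.40, 0.38, 0.27 and 0.21 on the log2 scale and the base ATPase Psmc6 by 0.28, whose other probe sets gave 0.13 and -0.01 without a call. Psmd14 kept its call without any single array, but not in the limma fit to the 6 arrays without DOX alone (adjusted p = 0.052). Without knockout-labelled replicate 3 Psmb3 kept its call too (adjusted p = 0.039) while the other 4 did not (0.056 to 0.14). Of the 6 calls, 2 and 5 remained without knockout-labelled replicates 1 and 2, and 2, 1 and 1 without the WT arrays. The groups did not overlap in 15 of the 37 with knockout-labelled higher and in 2 with it lower, against 19.4% of all probe sets in either direction. Those 2 were Psmb9, at 200, 141 and 120 against 201, 285 and 236 (-0.56, limma, adjusted p = 0.23), and Psmb10 (-0.34, adjusted p = 0.17).

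Lysosome and autophagy genes gave 5 calls of 26 (19.2%, against 2.75% of all genes), 4 higher and 1 lower, with a list median of 0.07. Ctsd, a lysosomal aspartic protease, had 3835, 3463 and 4082 in knockout-labelled hearts, against 2661, 2549 and 2514 in WT hearts (log2 fold change 0.55, adjusted p = 0.015, and 0.04 without knockout-labelled replicate 3). Becn1, the scaffold of the autophagy lipid kinase, had 888, 904 and 951 against 615, 672 and 729 (0.43, adjusted p = 0.013, and 0.039 without that array). Ctsb, a lysosomal cysteine protease, rose by 0.37 on the log2 scale (adjusted p = 0.047, and 0.14 without that array), and Stbd1 was the other higher member. The dimmer probe sets of Ctsb gave 0.1 to 0.53 and were not called. Atg7, the activating enzyme of autophagosome conjugation, had 96.8, 103 and 103 against 127, 124 and 125 on its brightest probe set (-0.24, adjusted p = 0.0072, and 0.016 without that array), while its other probe sets gave -0.05 to 0.02 and were not called. Of the 5 calls, 3, 5 and 3 remained without knockout-labelled replicates 1, 2 and 3, and 3, 1 and 2 without WT replicates 1, 2 and 3.

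Among 35 chaperones and cochaperones 1 was called on its brightest probe set (2.86%, against 2.75% of all genes), and on any probe set 1 was higher and 2 lower. Hspb6, the small heat shock protein Hsp20, had 4972, 5651 and 5511 in knockout-labelled hearts, against 7762, 8077 and 7870 in WT hearts (log2 fold change -0.55 ± 0.07, adjusted p = 0.012, 0.029 without knockout-labelled replicate 3 and 0.059 without WT replicate 2). Dnaja1, an Hsp70 cochaperone, had 1082, 1203 and 2209 against 774, 685 and 847, and it was called without knockout-labelled replicate 3 (0.56, adjusted p = 0.046, against 0.87 and 0.081 with all arrays). The list median was 0.14, or 0.02 without that array.

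Among 25 genes of CHIP, its reported clients and its partner enzymes, Stub1 was the only one called (4.0%, against 2.75% of all genes), and the list median was 0.01. Map3k5, which encodes ASK1, had 294, 215 and 284 in knockout-labelled hearts, against 368, 396 and 387 in WT hearts, groups that did not overlap, at a log2 fold change of -0.50 (adjusted p = 0.12). Foxo3 had 683, 584 and 528 against 1015, 846 and 686, at -0.47 (adjusted p = 0.22), and Foxo1 gave -0.23 (adjusted p = 0.41). Ptpn6, which encodes SHP-1, had 101, 95.7 and 126 against 89.5, 110 and 108, groups that overlapped, at 0.05 (adjusted p = 0.89). Stat3 gave 0.43 (adjusted p = 0.36), Myocd -0.09 and the Hsp70 cochaperone Dnajb1 0.26, and these are RNA levels that do not measure the proteins CHIP marks.

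Amino acid stress genes gave calls in both directions. ATF4 is a transcription factor that cells make more of when amino acids are short or proteins misfold, and many of its targets carry in their promoters a composite element that it binds with C/EBP proteins. Of 22 ATF4, serine and folate pathway genes 3 were called higher and 1 lower (18.2% in all, against 2.75% of all genes), with a list median of 0.27, or 0.18 without knockout-labelled replicate 3. Windows of 2 called targets are shown because each holds the 8-letter element TGATGNAA, searched on both strands from 250 bases before to 50 after the gene start. The first, from RefSeq on GRCm38.p6, is chr6:7693210-7693329 on the minus strand, with the match in capitals on the strand of the gene, 23 bases before its start. The other is chr2:119351012-119351131 on the plus strand, with the match in capitals reading on the opposite strand, 193 bases before the start.
Asns promoter: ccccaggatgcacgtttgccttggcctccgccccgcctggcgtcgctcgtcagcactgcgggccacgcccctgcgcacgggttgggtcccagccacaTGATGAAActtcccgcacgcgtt
Chac1 promoter: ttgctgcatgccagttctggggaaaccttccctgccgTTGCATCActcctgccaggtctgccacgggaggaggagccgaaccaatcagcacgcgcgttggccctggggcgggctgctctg
Such a match was present in 1304 of 32851 promoter windows (3.97%) and in 8 of the 20 list genes with a window, namely Asns, Atf3, Chac1, Fgf21, Nupr1, Pck2, Trib3 and Vldlr. The list was written to hold genes of the ATF4 pathway, so its share of matches is no result about these hearts. The other called members, Mthfd2 and Gnmt, had no match. A match describes these letters and shows no binding.

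Asns, asparagine synthetase, had 108, 176 and 283 in knockout-labelled hearts, against 57.3, 58.9 and 66.2 in WT hearts (log2 fold change 1.18 ± 0.23, adjusted p = 0.041). Chac1, which degrades glutathione, had 194, 148 and 226 against 97.5, 125 and 84.5 (0.71, adjusted p = 0.049). Both genes had separate groups, with the highest value on knockout-labelled replicate 3, and without it their adjusted p were 0.053 and 0.14. Mthfd2, a mitochondrial folate enzyme, had 106, 156 and 155 against 65.1, 60.6 and 58.7 (0.85, adjusted p = 0.014) and kept its call without that array (0.04). Its other probe set, dimmer over the 12 arrays, averaged 187 in knockout-labelled hearts and 25.9 in WT hearts, at 1.83 (adjusted p = 0.02, and 0.052 without that array). Atf5, a related factor, had 824, 762 and 1646 against 461, 483 and 474 without a call (adjusted p = 0.087), and of the genes with a match Fgf21, at 14.3, 16 and 14.2 against 15.5, 14.3 and 13.9, and Pck2 had log2 fold changes of 0.01 and 0.05. The lower member was Gnmt, and of the 4 calls 3, 3 and 2 remained without knockout-labelled replicates 1, 2 and 3, and 2, 0 and 0 without the WT arrays.

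Of 25 transporters of amino acids and monocarboxylates 2 were called higher and 2 lower, against 2.75% of all genes called in either direction, and 21 did not pass. Slc16a7, a carrier of pyruvate and lactate, had 258, 121 and 140 in knockout-labelled hearts, against 61.3, 54.2 and 49.5 in WT hearts (log2 fold change 1.18, adjusted p = 0.026). Slc38a3, a glutamine transporter, had 341, 351 and 356 against 255, 196 and 207 (0.61, adjusted p = 0.031). Slc16a6, a monocarboxylate family member that exports ketone bodies in zebrafish liver, had 31.9, 68.4 and 32.7 against 163, 103 and 113 (-1.07, adjusted p = 0.029), and Slc38a4, an amino acid transporter, had the dim values 24.3, 23.0 and 14.1 against 36.5, 39.7 and 42.5 (-0.45, adjusted p = 0.019). Slc38a4 kept its call without knockout-labelled replicate 3, and the other 3 had adjusted p of 0.052 to 0.093. Of the 4 calls, 2 and 3 remained without knockout-labelled replicates 1 and 2, and 2, 0 and 0 without the WT arrays.

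Glutathione enzymes made up the antioxidant calls, 3 of 30, all higher (against 1.35% of all genes called higher), with a list median of 0.10. Gpx1, the main cytosolic glutathione peroxidase, had 2614, 2643 and 3018 in knockout-labelled hearts, against 1572, 1834 and 1951 in WT hearts (log2 fold change 0.62 ± 0.11, adjusted p = 0.025). Gpx4, which reduces lipid peroxides, had 9065, 8211 and 9618 against 7052, 6811 and 6745 (0.38, adjusted p = 0.031), and Gstm2, a glutathione transferase, had 1136, 1146 and 1035 against 923, 901 and 793 (0.33, adjusted p = 0.049). The groups were separate in each, but none of the 3 was called without knockout-labelled replicate 3 (adjusted p = 0.068 to 0.095), without knockout-labelled replicate 1 or without any WT array. The dimmer Gpx4 probe set gave 0.24 without a call (adjusted p = 0.17).

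Apoptosis regulators gave 2 calls of 27, both lower (7.41%, against 1.41% of all genes called lower). Casp9, the caspase that the mitochondrial route to cell death activates first, had 85.2, 89.8 and 80.6 in knockout-labelled hearts, against 144, 116 and 118 in WT hearts (log2 fold change -0.42, adjusted p = 0.042). Fadd, the adaptor of death receptors, had 176, 182 and 167 against 234, 229 and 215 (-0.32, adjusted p = 0.04). Neither was called without knockout-labelled replicate 3 (adjusted p = 0.13 and 0.12), and leaving out any WT array or knockout-labelled replicate 1 ended both calls as well. The other probe sets of these genes, -0.03 and 0.10 for Casp9 and -0.01 for Fadd, were not called. The list median was 0.08.

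Both kinase pathway lists gave 3 calls, against 2.75% of all genes. Of 30 gp130, STAT3 and MAP kinase genes 2 were called higher and 1 lower. Mapk9, which encodes the kinase JNK2, had 190, 193 and 223 in knockout-labelled hearts, against 152, 140 and 150 in WT hearts (log2 fold change 0.38, adjusted p = 0.01, and 0.0093 without knockout-labelled replicate 3). Of its other probe sets 1 was called higher as well (0.27, adjusted p = 0.019) and 1 gave -0.22 without a call (adjusted p = 0.13). Mapk14, which encodes p38 alpha, had 611, 618 and 698 against 834, 853 and 870 (-0.39, adjusted p = 0.017, and 0.015 without that array), and Map2k1, the kinase MEK1, rose by 0.19 (log2 fold change, adjusted p = 0.049, and 0.14 without that array). The 5 other probe sets of Mapk14 gave -0.11 to 0.08 and were not called. Of these 3 calls, 2, 3 and 2 remained without knockout-labelled replicates 1, 2 and 3, and 2, 0 and 1 without the WT arrays. Of 30 insulin, IGF and AKT genes Phlda3 and Igfbp7, a secreted binding protein (log2 fold change 0.57, adjusted p = 0.023), were higher and Eif4ebp1, the translation repressor that mTOR controls, was lower, at 1325, 1425 and 1002 against 1858, 2074 and 1830 (-0.62, adjusted p = 0.036). Without knockout-labelled replicate 3 Eif4ebp1 kept its call (adjusted p = 0.049) and Igfbp7 did not (0.075). Of these 3 calls, 1 and 3 remained without knockout-labelled replicates 1 and 2, and 1, 1 and 2 without the WT arrays.

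Of 24 cardiac transcription factor genes 1 was called on its brightest probe set (4.17%, against 2.75% of all genes), and 2 were called lower on any probe set. Prox1, a homeobox factor needed for sarcomere assembly in the mouse heart, was the first of these, with 154, 130 and 130 in knockout-labelled hearts against 280, 221 and 252 in WT hearts (log2 fold change -0.73 ± 0.11, adjusted p = 0.016, 0.049 without knockout-labelled replicate 3 and 0.059 without WT replicate 3). Of 24 cytosolic ribosomal protein genes Rps27l, a ribosomal protein induced by p53, was called higher, at 3260, 2981 and 4181 against 1970, 2141 and 2153 (0.71, adjusted p = 0.017, also 0.017 without knockout-labelled replicate 3, and up to 0.076 without a WT array), and Rpl3l lower. Together they made up 8.33% of that list, against 2.75% of all genes. Of 26 calcium handling genes Slc8a1 alone was called on its brightest probe set (3.85%, against 2.75% of all genes). Of 23 potassium channel genes none was called by limma on its brightest probe set, with a list median of -0.08. On any probe set 2 calcium handling genes were called lower and 1 potassium channel gene higher.

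The atrial and fetal program, which stressed hearts reactivate, gave 1 call of 13 (7.69%, against 2.75% of all genes). Tnni1, the slow skeletal and fetal cardiac troponin I, was dim, with 28.7, 28.8 and 41.0 in knockout-labelled hearts against 20.7, 17.1 and 16.4 in WT hearts (log2 fold change 0.37, adjusted p = 0.03, and 0.034 without knockout-labelled replicate 3), and its call ended without any WT array, with an adjusted p of up to 0.12. Nppa, atrial natriuretic peptide, had 13732, 17236 and 16613 against 9428, 6579 and 3556, groups that did not overlap, at 1.38 (adjusted p = 0.097). Myh7, the slow ventricular myosin, had 1954, 4130 and 6962 against 16877, 9825 and 5051, groups that overlapped, at -1.29 (adjusted p = 0.24). The list median was 0.37, and 0.10 without that array, which also held the high Myl7, Sln and Myl4 values.

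Markers of the cell types in a heart were measured as a check of the tissue. Cardiomyocyte markers were bright in every heart, with Myh6, the main myosin of the adult mouse heart, at 22009, 21773 and 21068 in knockout-labelled hearts and 22595, 22266 and 23074 in WT hearts. The 12 markers summed to 195565 to 209533 in knockout-labelled hearts and 199701 to 209165 in WT hearts. That sum holds Nppa, which was higher in every knockout-labelled heart, so it does not show equal levels of the other markers. In 6 of the 12 the groups did not overlap with knockout-labelled lower and in 1, Nppa, with it higher. Over all probe sets that share was 19.4% in either direction. The list median was -0.04, or -0.03 without knockout-labelled replicate 3. Endothelial markers summed to 19022 to 20036 in knockout-labelled hearts and 19801 to 21013 in WT hearts. Macrophage markers summed to 6331, 4534 and 8481 in knockout-labelled hearts and 5265, 5625 and 6602 in WT hearts, groups that overlapped. Skeletal muscle markers summed to 9421, 10114 and 7874 in knockout-labelled hearts and 11141, 9793 and 12153 in WT hearts. None of the endothelial, macrophage, lymphocyte, neutrophil, erythroid, nerve, skeletal muscle, lung, liver and thymus markers was called by limma. No immediate early, clock, glucocorticoid, interferon or cell cycle gene was called on its brightest probe set. On any probe set 2 immediate early genes and 1 cell cycle gene were called higher. Of 11 adipocyte markers Cidea alone was called (9.09%, against 2.75% of all genes).

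Over the 43 lists, 51 of the 858 genes measured were called with all arrays, 34 higher and 17 lower, against 2.75% of all genes, and 27 without knockout-labelled replicate 3, against 1.13% of all genes. The lists were written with earlier results of these data known, and the shares over all genes include dim ones. The counts are thus no test of the lists. The matrix list had the highest median of the lists plotted and the fatty acid list the lowest, both with and without that array except that without it the glucocorticoid list also stood at -0.20.

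**Figure D5:**
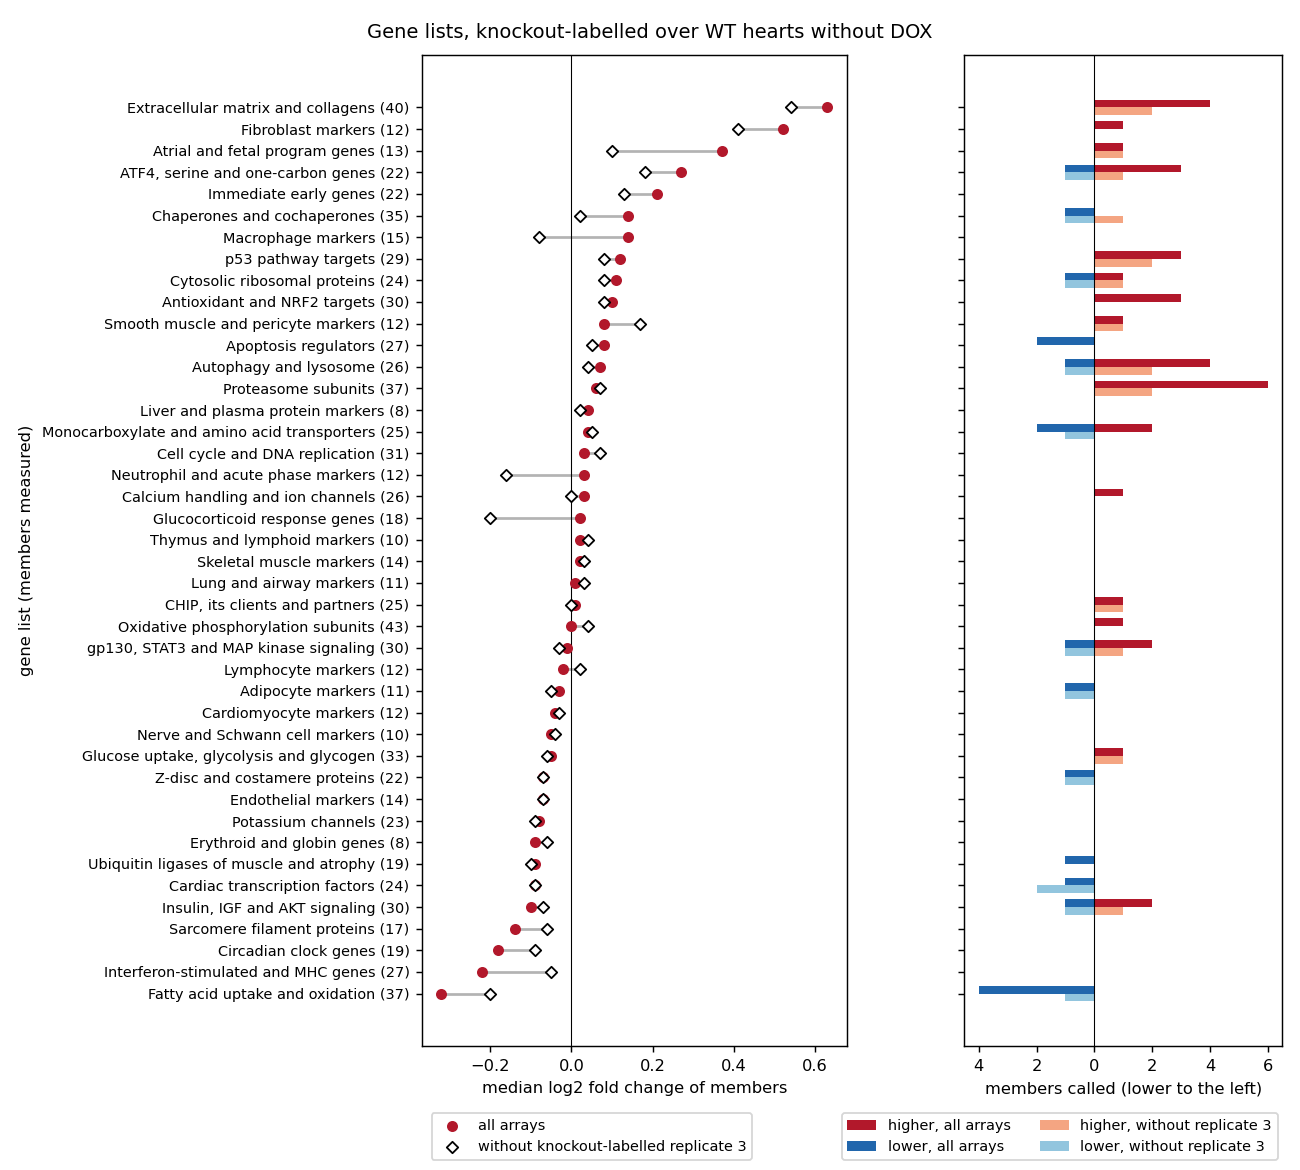
Median log2 fold change of each list, knockout-labelled over WT hearts without DOX (left), with all arrays (filled circles) and without knockout-labelled replicate 3 (open diamonds), and the number of members called (right, lower to the left). The matrix list lies at 0.63 and 0.54 and the fatty acid list at -0.32 and -0.20.

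The same genotype difference was measured in the hearts after DOX, on other arrays but with the shared estimate of the spread. There 424 probe sets were called (0.941%), and by gene 259 (1.42%). Stub1 averaged 7427 in knockout-labelled hearts after DOX, against 1941 in WT hearts after DOX, a log2 fold change of 1.89 (limma, adjusted p = 0.00099). Myot averaged 186 against 1312 there, a log2 fold change of -2.61 (adjusted p = 0.00033), and Gnmt, Rpl3l and Phlda3 were called there as well, at -1.12, -1.42 and 1.15. Of the 15 higher genes named above 5 were called after DOX, and of the 15 lower genes 6, against 1.42% of all genes. Their sign was the same as without DOX in 15 and 12. Acta2 was not called after DOX (0.89, adjusted p = 0.25), nor were Aqp4 (0.32), Cyp26b1 (0.05), Hspb6 (0.04) or Acadvl (0.01). Of the 20 neighbours of Stub1 only Fbxl16 was called there (0.44, limma, adjusted p = 0.031), against 1.42% of all genes. The 5 neighbours called lower without DOX gave -0.22 to -0.00 after it. The interaction, which tests whether the genotype difference itself differed after DOX and without it, called 0 probe sets with limma, with 3914 at an unadjusted p under 0.05, so none of these genes was shown to differ between the conditions.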

How the data were processed

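RNA from whole hearts was hybridised to Affymetrix mouse arrays, and the deposited values are linear intensities per probe set that the authors made with Affymetrix Expression Console. Its version, its summary method and any scaling step are not given in the sources used here. Array medians lay between 28.9 and 30.4, and 51.4% of the 45037 probe sets averaged under 32, where differences are least certain. The number of arrays limits the precision.

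The value 32 was added before log2, and 4 group means were fitted to the 12 arrays with limma 3.58.1 in R 4.3.3 (eBayes without a trend, two-sided, Benjamini-Hochberg over all probe sets), a step checked on simulated data. Tables and plots were made with Python 3.11.15. Means and ratios are of linear intensities. A gene stands on its brightest probe set, except that the 15 higher and 15 lower genes each stand on the brightest called probe set with separate groups that carries a single gene name. Probe sets naming 1 gene numbered 34945, several 932 and none 9160, and 34741 were matched by Entrez ID to GRCm38.p6, used for names, neighbours and promoters.

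Named were Stub1 and its called neighbours, the 15 largest called changes each way, the CHIP list, and called members or the leading member of each list. The comparison, its members and its lists were chosen with earlier results of these data known. Alternatives covered the normalization, the added value, a filter, the 6 arrays alone, variance options, a replicate block, Student's t-test and leaving out each array.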

Additional observations from a re-analysis of the deposited data

Results flagged for a closer look

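Gm19277 averaged 30.9 in knockout-labelled hearts and 149 in WT hearts without DOX, against 99.6 in knockout-labelled hearts and 36.9 in WT hearts after DOX. Its log2 fold change, knockout-labelled over WT, was thus -1.52 without DOX and 0.94 after DOX, with every array of 1 genotype on the same side each time. The interaction was 2.46 and did not pass the threshold (limma, adjusted p = 0.076). Atg7 on its brightest probe set likewise gave -0.24 without DOX and 0.10 after DOX, with an interaction of 0.34 (adjusted p = 0.076). Myh1, a skeletal muscle myosin with group mean intensities of 6.13 and 7.41 without DOX, gave -0.05 and 0.05, with an interaction of 0.09 (adjusted p = 0.51). Such opposite signs without overlap were found at 336 probe sets, 16 of them called without DOX, of 2518 whose groups did not overlap in either condition.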

How the results depend on the processing

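The count of 817 called probe sets depended on the fit. It was 1357 with a mean intensity of at least 64, 1414 with array weights, 206 with the 6 arrays without DOX alone, 94 with those less knockout-labelled replicate 3, 78 at an adjusted p under 0.01 and 242 at 1.5-fold or more. Leaving out 1 array without DOX gave 84 (without WT replicate 2) to 1206 (without knockout-labelled replicate 2), with 490 and 338 without knockout-labelled replicates 1 and 3 and 382 and 174 without WT replicates 1 and 3. Student's t-test, which the fit across arrays replaces, gave 4966 at an unadjusted p under 0.05 and 3 after adjustment. Quantile normalization, median scaling, other added values, 1 probe set per gene, a trended variance and leaving out 1 DOX array gave 560 to 997. The DOX arrays and the 6 arrays less replicate 3 were chosen as alternatives after seeing the data. The 51 called list genes became 10 with the 6 arrays alone, 2 with the adjusted t-test and 6 (without WT replicate 2) to 66 (without knockout-labelled replicate 2) with 1 array out. The interaction count of 0 became 4 with a trended and robust variance, 5 with array weights and 0 to 2 with 1 array out. The cause of these shifts was not tested.

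Same-numbered arrays of the 2 groups deviated together at r = 0.030, 0.136 and 0.082, so the numbers were not taken as pairs. The replicate block gave 832 calls with 12 arrays and 0 with the 6 arrays (6574 at an unadjusted p under 0.05 in limma), and 0 called list genes with the 6 arrays.

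Of 78 named called probe sets, 38 stayed called without knockout-labelled replicate 3, 10 without WT replicate 2 and 13 with the 6 arrays alone, and none changed sign under any alternative. Genes without a call changed sign near 0. With array weights Myocd gave 0.02, Jak1 0.06 and Ube2d2a -0.04. With the 6 arrays less replicate 3, Ptpn6 gave -0.04, Myocd 0.12, Jak1 0.07, Prkaa1 -0.02 and Ube2d2a -0.06. With 1 array out, the ranges were -0.09 to 0.03 for the dimmer Stub1 probe set, -0.04 to 0.12 for Ptpn6, -0.20 to 0.12 for Myocd, -0.31 to 0.07 for Jak1, -0.17 to 0.01 for Jak2, -0.01 to 0.14 for Mapt, -0.02 to 0.05 for Prkaa1, -0.01 to 0.12 for Prkaa2, -0.06 to 0.05 for Ube2d2a, -0.07 to 0.02 for Ube2v1, -0.05 to 0.03 for Sirt6 and -0.01 to 0.02 for Bag2.

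With 3 hearts per group, a tissue of mixed cells, no stated probe positions and a knockout label that Stub1 goes against, the values describe these 6 hearts. Dim probe sets, such as those of Tnni1 and Slc38a4, are the least certain.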
